A study of Rattus norvegicus with 20 samples.

Results

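Rats eating 30% less food for 1 month were compared with rats eating 5% less for the same time, by the RNA of their livers. The comparison took the 2 arrays of the 30% pool at 1 month and the 2 arrays of the 5% pool at 1 month, 4 of the 20 arrays of the series, and all probe sets that are not controls. Arrays of unrestricted rats were not used. The rats were male Wistar, an outbred laboratory strain, and were put on the reduced diet at 6 weeks of age; the arrays of 1 month carry an age label of 9 weeks, which the labels do not tie to the start or the end of the diet. All rats went without food for 16 h before sampling, so every level below is a fasting level. Liver RNA from 5 rats made up each pool, per the labels, and each pool was measured on 2 Affymetrix arrays. Each side is therefore 1 RNA pool, its 2 arrays repeat the same RNA, and the difference between the pools has no replicate check. Pools of rats restricted by 10 and 20% for 1 month, and by 5 to 30% for 1 week, serve as a comparison.

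The fasted liver lives on a low insulin and high glucagon and glucocorticoid signal, which lowers the enzymes that make fatty acids from sugar and raises the genes of amino acid breakdown and glucose output. Igfbp1, a secreted protein that binds insulin-like growth factors, is held down by insulin through the Foxo transcription factors, and Tat and Fkbp5 are induced by glucocorticoids. The liver clock, whose Rev-erb repressors (Nr1d1, Nr1d2) and output factor Dbp cycle over the day, is set largely by the time of feeding.

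The hepatocyte signal was strong on all 4 arrays, with albumin at 13.41 on the log2 scale on each of them, the top of the normalized scale. The deposited signals differed in scale between arrays. The trimmed mean was 58.0 and 98.7 units on the arrays of the 5% pool and 38.4 and 98.8 on those of the 30% pool. The arrays therefore had to be brought to 1 scale, and quantile normalization was the method chosen. Levels below are log2 of the quantile-normalized signal, and differences are the 30% pool minus the 5% pool with the standard error (SE) that the 2 arrays of each pool give, which covers array error only. The ratio of the 3' to the 5' probe set of GAPDH, a sign of RNA quality, was 1.60 and 1.62 in the 5% pool and 1.44 and 1.17 in the 30% pool, without overlap. Arrays of the 30% pool correlated with each other at 0.955 and those of the 5% pool at 0.967, against 0.939 to 0.960 between the pools. Before normalization the median difference over the 9520 probe sets tested was -0.265. It was -0.174 with each array centred on the median of all its probe sets that are not controls. All differences given here are relative to that shift.

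A gene was called where the pools differed by at least 2-fold, also after values under 3.58, the lowest mean level tested, were raised to it, and both arrays of one pool lay above both of the other. Of 7051 genes tested, 44 were called higher at 30% (0.624%) and 65 lower (0.922%), together 1.55% of genes. The 10th and 90th percentiles of the difference over genes were -0.47 and 0.43, and the median array SE of a difference was 0.179. In 33 of the 109 called genes 1 pool lay under 3.58, and for these a fold is given as at least that size. The rule is one of size and not a test: arrays that did not overlap, whatever the size, were found at 22.5% of genes in the higher direction and at 23.8% in the lower. At the edge of the rule, Akr1c1 (1.00) and Bcar3 (-1.17 before low values were raised) lay just inside and Ehd3 (0.998) and Sec31a (-0.997) just outside. In a liver homogenate, fewer cells of a type and less RNA per cell cannot be told apart.

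**Figure D1:**
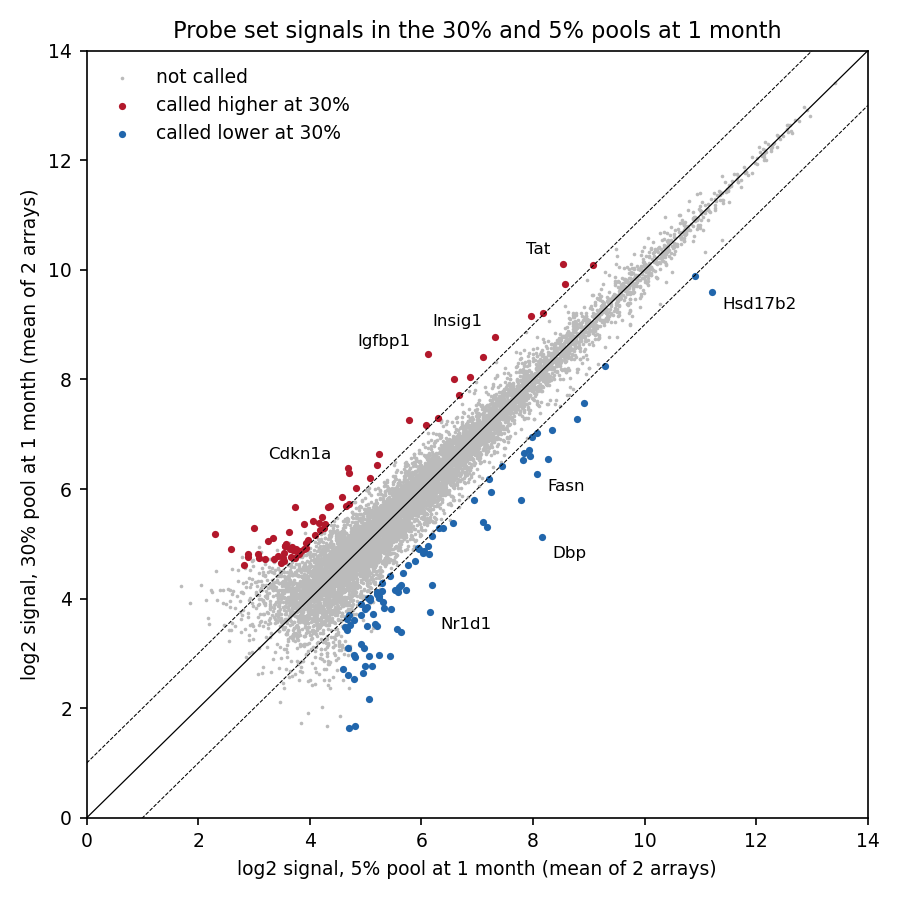
Log2 signal of each of the 9520 probe sets in the 30% pool (vertical) against the 5% pool (horizontal), each the mean of 2 arrays, at 1 month; the solid line is equality and the dashed lines are a 2-fold difference. The 70 probe sets called higher (0.735%) are red and the 89 called lower (0.935%) are blue; Igfbp1 lies highest above the upper line among the labelled genes and Dbp farthest below the lower one.

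Where the 4 restrictions at 1 month could be ordered, a test was available: limma fitted a straight line of the pool levels on percent restriction, 1 line for each duration, over the 8 restricted pools, and slopes are given as the change over 25 percentage points, the step from 5 to 30%. The p-values rest on how far single pools depart from the lines, since no condition had a second pool. At 1 month the slope passed for 4 genes that rose (0.0567% of genes) and 12 that fell (0.17%), and 12.5% of genes had an unadjusted p under 0.05. Igfbp1, Sgk1, Aass and Edem1 rose, and Nr1d1, Hsd17b2, Dbp, Rgs16, Thrsp, Sqstm1, Abcc2, Hes6, Pdk2, Swsap1, Ube3b and Msx1 fell. Low values were not raised for the slopes. Msx1, Ube3b and Swsap1 lay under 3.58 in the 30% pool, at 1.67, 2.77 and 2.96, so the sizes of their slopes are uncertain. These calls rest on the end pools: without the 30% pool or without the 5% pool 0 of 9520 probe sets passed, against 19 with both (523 and 811 had an unadjusted p under 0.05). With no variance trend in limma 0 passed (1079 unadjusted), and adding the GAPDH ratio to the model left 1, which was not among the 19.

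Igfbp1, Tat, Sgk1 and Fkbp5, genes held down by insulin or induced by glucocorticoids, were higher at 30%. Igfbp1 stood at 6.25 and 5.98 on the arrays of the 5% pool and at 8.46 and 8.46 on those of the 30% pool. The pools did not overlap, and the 10 and 20% pools lay between them at 7.19 and 7.69. The difference was 2.35 ± 0.14 (array SE), a 5.09-fold higher level, and the slope over the 1 month pools was 2.13 ± 0.25 (limma adjusted p = 0.0105). Its promoter is shown because it carries both sites of the insulin response unit through which Foxo proteins are known to act on this gene in human and rat. The stretch is chr14:86261027-86261326 of GRCr8, plus strand, from RefSeq, 250 bases before to 50 after the start of the gene, with CAAAACA and TATTTTG in capitals.
Igfbp1: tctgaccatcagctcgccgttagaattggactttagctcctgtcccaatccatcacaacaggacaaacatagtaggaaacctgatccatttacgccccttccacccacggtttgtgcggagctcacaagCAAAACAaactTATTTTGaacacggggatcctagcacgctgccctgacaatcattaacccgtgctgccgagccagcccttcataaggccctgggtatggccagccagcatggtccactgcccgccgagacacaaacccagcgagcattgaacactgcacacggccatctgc
The first lies at -121 to -115 and the second at -110 to -104 from the start of the gene. Searched on both strands, CAAAACA occurs in 6.20% of 27457 promoters of this length, TATTTTG in 4.94%, and both in 0.463%. The match is a description of the letters only.

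Tat, tyrosine aminotransferase, a textbook glucocorticoid-induced enzyme, stood at 8.50 and 8.59 at 5% and at 10.02 and 10.19 at 30%. The 30% arrays lay clearly above, by 1.56 ± 0.09 (2.95-fold), but the 10 and 20% pools were already at 9.85 and 9.98, close to the 30% level. Its line at 1 month did not pass (slope 1.27 ± 0.34, limma adjusted p = 0.182). Sgk1, a serum- and glucocorticoid-regulated kinase, was at 5.78 and 5.76 against 7.23 and 7.29, a difference of 1.49 ± 0.03 (2.80-fold). It stood at 6.02 in the 10% pool and 7.16 in the 20% pool, so the higher level was seen in both pools of larger restriction, and its slope was 1.64 ± 0.27 (limma adjusted p = 0.0488). Fkbp5, a co-chaperone that dampens the glucocorticoid receptor, was at 5.89 and 6.27 against 7.32 and 7.02, a difference of 1.09 ± 0.24 (2.13-fold). Tsc22d3, another glucocorticoid-induced gene, differed by 0.86 ± 0.25 without reaching the 2-fold size. Of 27 genes of insulin and glucocorticoid signalling tested, 4 were called higher (Igfbp1, Tat, Sgk1, Fkbp5) and 0 lower, against 0.624% of all genes called higher. Over the whole list 15 genes lay above 0 and 12 below, and the median of the list was 0.15 against -0.0049 for all genes, with 14.8% of the list called. With the arrays centred on their medians, or with signals as deposited, that median was -0.11 and -0.20, against -0.174 and -0.265 over all probe sets tested. Fkbp5 then fell short of 2-fold, as it also did without the first array of either pool. Pck1, the rate-limiting enzyme of gluconeogenesis, differed by 0.22 ± 0.07, and the receptor gene Insr, which has overlapping arrays, by 0.61 ± 0.52. Mt2A, a metallothionein that responds to glucocorticoids and zinc, differed by 0.66 ± 0.07.

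**Figure D2:**
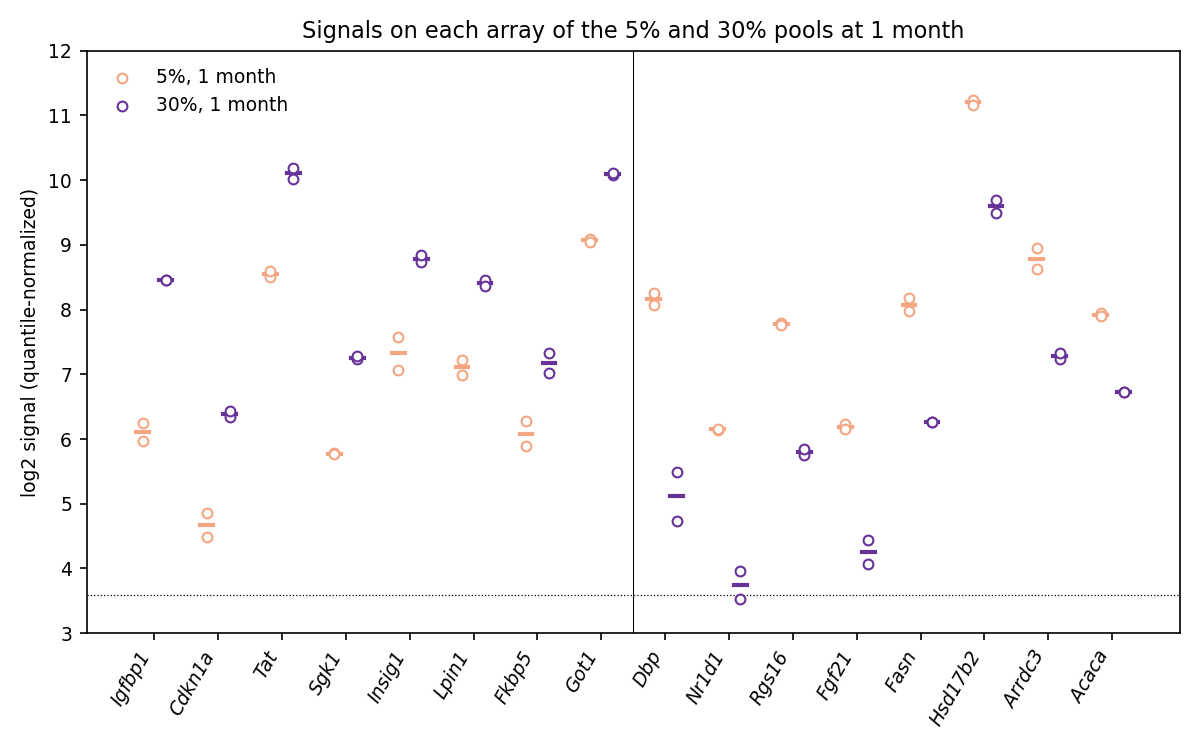
Log2 signal on each array (open circles, 2 per pool) and pool means (bars) of 16 genes in the 5% pool (orange) and the 30% pool (purple) at 1 month; the dotted line is the lowest mean level tested, 3.58. Left of the vertical line the 30% arrays lie above the 5% arrays in all 8 genes, and right of it they lie below in all 8; these genes were chosen for that.

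Aass, Got1 and Tat were the higher enzymes of amino acid breakdown. Aass, the enzyme that starts lysine breakdown, was at 8.03 and 8.32 at 5% and at 9.20 and 9.24 at 30%, with 8.44 and 8.82 in the 10 and 20% pools. The levels climb step by step, and the slope of 1.03 ± 0.14 passed (limma adjusted p = 0.022). Got1, the cytosolic aspartate aminotransferase, was at 9.09 and 9.05 against 10.08 and 10.11, a difference of 1.02 ± 0.03 (2.03-fold). Of the 45 genes tested, 3 were called higher (Tat, Got1, Aass) and 0 lower, 6.67% of the list against 0.624% of all genes called higher. The arrays lay apart in the higher direction for 21 and in the lower for 8, against 22.5 and 23.8% of all genes. The median was 0.10 (-0.11 with arrays centred on their medians, against -0.174 over all probe sets tested). Got1 and Aass lay just past the 2-fold size and fell short of it under that scaling or with signals as deposited, and Aass also without the first array of the 5% pool. Oat, ornithine aminotransferase, differed by 0.86 ± 0.22, and Acmsd, which diverts tryptophan breakdown from NAD synthesis, by 0.97 ± 0.14 with 6.06 and 5.99 at 30% against 4.93 and 5.19. Among the urea cycle enzymes, Cps1, which feeds ammonia into the cycle, differed by 0.05, Otc, the next step, by 0.06, and Asl, which splits argininosuccinate, by 0.44 ± 0.16.

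Fasn, Acaca, Me1, Elovl6, Fabp5 and Mid1ip1, genes of fatty acid synthesis and handling, were lower at 30%, and Lpin1 and Insig1 of the same list were higher. Fasn, fatty acid synthase, stood at 7.98 and 8.17 at 5% and at 6.27 on both arrays at 30%. The pools differed by -1.81 ± 0.10 (3.51-fold lower), and the 10 and 20% pools lay between them at 6.73 and 7.21, out of order of restriction. A second Fasn probe set differed by -1.87 ± 0.26. Acaca, the acetyl-CoA carboxylase that commits carbon to fatty acids, was at 7.94 and 7.90 against 6.72 and 6.72, a difference of -1.20 ± 0.02. Its second, dimmer probe set differed by only -0.12 ± 0.17, so the 2 probe sets of this gene disagree. Me1, which supplies NADPH, was at 7.86 and 7.83 against 6.46 and 6.86 (-1.19 ± 0.20), and its second probe set also gave -1.19. Elovl6, which elongates palmitate, was at 5.22 and 5.40 against 3.67 and 4.20 (-1.37 ± 0.28). Fabp5, a fatty acid binding protein, differed by -1.27 ± 0.13 and Mid1ip1, a partner of Thrsp that activates acetyl-CoA carboxylase, by -1.05 ± 0.11. Thrsp, one of the brightest lipogenic transcripts, was at 11.00 and 11.18 against 10.32 and 10.34. It differed by -0.76 ± 0.09, and its slope at 1 month passed for 3 of its probe sets, at -0.73 ± 0.12 for the brightest (limma adjusted p = 0.0429). Just short of the 2-fold size were Srebf1, a master regulator of these enzymes (-0.98 ± 0.26), Acly, which makes cytosolic acetyl-CoA (-0.89 ± 0.09), Scd, the stearoyl-CoA desaturase (-0.85 ± 0.09), and Pklr, the liver pyruvate kinase (-0.90 ± 0.09). The second probe set of Pklr, with -1.29 ± 0.24, met the rule, and that of Srebf1 differed by -0.62 ± 0.27.

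Of the 29 genes of fatty acid and triglyceride synthesis tested, 6 were called lower and 2 higher, 27.6% of the list against 1.55% of all genes. The arrays lay apart in the lower direction for 19 and in the higher direction for 5, against 23.8 and 22.5% of all genes. The median of the list was -0.57. The 2 called higher were Lpin1 and Insig1. Lpin1, a phosphatidate phosphatase that is also induced by fasting and glucocorticoids, was at 7.00 and 7.22 against 8.46 and 8.37, a difference of 1.31 ± 0.12 (2.47-fold), with 8.79 in both the 10 and the 20% pool; it fell short of 2-fold with signals as deposited. Insig1, which retains the precursors of Srebp proteins in the endoplasmic reticulum, was at 7.57 and 7.07 against 8.73 and 8.84, a difference of 1.46 ± 0.25 (2.76-fold). Gpam, which starts triglyceride synthesis, differed by 0.77 ± 0.30 in the higher direction. Neither slope of Lpin1 and Insig1 at 1 month passed (limma adjusted p = 0.554 and 0.218).

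No gene of cholesterol synthesis reached 2-fold. Of 19 tested, 0 were called in either direction (1.55% of all genes), 11 lay below 0 and 8 above, and the median was -0.20, which moved between -0.31 (without the first array of the 5% pool) and -0.11 (without the second of the 30% pool) when 1 array was left out. The arrays lay apart in the lower direction for 10 of them and in the higher for 3, against 23.8 and 22.5% of all genes. Nsdhl, a late enzyme of the pathway, was at 8.95 and 9.07 against 8.28 and 8.14 (-0.79 ± 0.09). Fdps, which makes farnesyl pyrophosphate, was at 8.68 and 8.65 against 7.99 and 8.05 (-0.64 ± 0.03), and Fdft1, the squalene synthase, differed by -0.64 ± 0.12, with 0.04 ± 0.27 on its second probe set. Insig2, the other retention protein of the Srebp precursors, went the other way, at 8.14 and 8.02 against 8.78 and 8.76 (0.70 ± 0.06). Of 33 genes of fatty acid oxidation, 0 were called (1.55% of all genes), 17 lay above 0 and 16 below, and the median was 0.0051. Cpt1a, the gate of mitochondrial fatty acid entry, differed by -0.18 ± 0.10. Pdk4, which spares pyruvate in fasting, was at 5.27 and 5.37 against 6.11 and 6.13 (0.80 ± 0.05). Among 15 genes of glycolysis and glycogen, the median was -0.27 and 12 lay below 0. Only the glucose transporter Slc2a1 was called, higher by at least 2.35-fold, 6.67% of the list against 1.55% of all genes. Slc2a1 read 0.30 and 4.30 on the arrays of the 5% pool and 5.59 and 4.76 on those of the 30% pool, so its size rests on 1 very low array. It was not called without that array, without the first array of the 30% pool or with signals as deposited.

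The 2 genes farthest below 0, with low values raised, belong to the clock. Dbp, an output factor of the liver clock, was at 8.07 and 8.26 at 5% and at 4.74 and 5.49 at 30%. It differed by -3.05 ± 0.39, an 8.27-fold lower level. The 10 and 20% pools stood at 7.96 and 7.48, close to the 5% pool, so the low level was seen in the 30% pool. The line still passed, at -2.93 ± 0.49 (limma adjusted p = 0.048). Nr1d1, the Rev-erb alpha repressor, was at 6.15 and 6.16 against 3.53 and 3.97, at least 5.19-fold lower. Its pools at 10 and 20% were at 6.05 and 4.65, and the slope of -2.58 ± 0.26 had the smallest p of the 1 month slopes (limma adjusted p = 0.0079). Nr1d2, Rev-erb beta, was at 7.47 and 7.41 against 6.20 and 6.65 (-1.02 ± 0.23, not called without the first array of either pool), and Bhlhe40, another repressor of the clock, differed by -0.78 ± 0.04. Rgs16, a regulator of G protein signalling that cycles in the liver with feeding, was at 7.79 and 7.77 against 5.75 and 5.85, and fell along the restrictions with a slope of -1.78 ± 0.27 (limma adjusted p = 0.0425).

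The core clock genes did not all follow. Per2, a period gene, was at 6.31 and 6.07 against 6.15 and 6.46, a difference of 0.12 ± 0.20 with overlapping arrays. Per1 differed by 0.24 ± 0.80, since its 2 arrays of the 30% pool read 5.48 and 3.89. Hlf and Tef, relatives of Dbp, differed by -0.53 ± 0.11 and -0.06. Clock differed by 0.37 ± 0.21, and Bmal1 lay under the signal filter and was not tested. Of 16 genes listed for the clock and tested, 3 were called lower (Dbp, Nr1d1, Nr1d2) and 1 higher (Tubb2a), 25% of the list against 1.55% of all genes. Its median was -0.09, and between -0.27 (without the first array of the 30% pool) and -0.04 (without the first of the 5% pool) with 1 array left out. Tubb2a, a beta tubulin placed in the list because its RNA cycles in the liver, was at 5.43 and 5.05 against 6.62 and 6.65 (1.39 ± 0.19). The 10 and 20% pools, at 5.23 and 5.28, were at the 5% level. The time of day at which the livers were taken is not given in the sources used here, and its part in these differences was not tested.

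**Figure D3:**
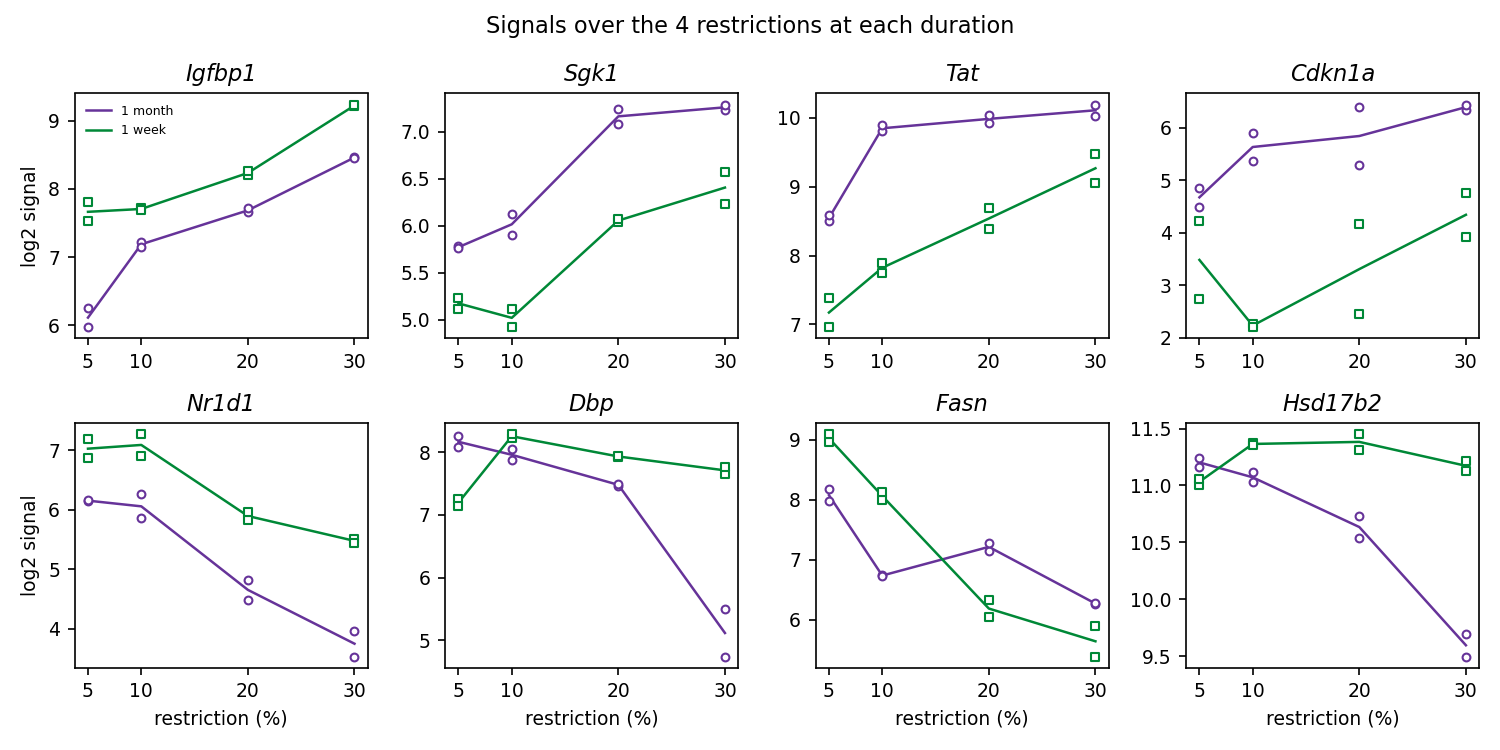
Log2 signal of 8 genes against percent restriction in the pools restricted for 1 month (purple circles) and 1 week (green squares); points are single arrays and lines join pool means. At 1 month Igfbp1 and Sgk1 climb, Nr1d1 falls, Dbp and Hsd17b2 fall mostly at 30%, and at 1 week Dbp and Hsd17b2 show no such fall.

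Fgf21, a hormone made by the fasted or protein-starved liver, was lower at 30%, at 6.24 and 6.15 against 4.44 and 4.07. The difference was -1.94 ± 0.19 (3.83-fold lower). The 10 and 20% pools were at 4.87 and 4.54, near the 30% level, so the 5% pool stood out as high, and the slope did not pass (-1.67 ± 0.37, limma adjusted p = 0.116). Fgf21 is a target of Atf4, the factor that answers amino acid shortage and stress, and of PPAR alpha and the carbohydrate-sensing factor ChREBP. Its promoter is shown because it carries matches to an element of Atf4 and to an E-box. The stretch is chr1:105221327-105221626 of GRCr8, minus strand, from RefSeq; the capitals mark TTGCATCA, which is TGATGNAA (the composite element of Atf4 and C/EBP) read on the other strand, and CACGTG, an E-box.
Fgf21: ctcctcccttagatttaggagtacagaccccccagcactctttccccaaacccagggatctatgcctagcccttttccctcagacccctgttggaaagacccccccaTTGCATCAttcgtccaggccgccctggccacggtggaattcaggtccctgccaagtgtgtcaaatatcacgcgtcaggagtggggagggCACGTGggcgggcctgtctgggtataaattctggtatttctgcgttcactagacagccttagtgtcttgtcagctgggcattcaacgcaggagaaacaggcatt
The first lies at -143 to -136 and the second at -54 to -49 from the start of the gene. On either strand TGATGNAA occurs in 3.82% of the promoters, CACGTG in 6.65% and both in 0.171%. Here too the matches describe the letters only, and the part of Atf4 in the difference was not tested. Of 25 genes of the Atf4 amino acid response tested, 2 were called lower (Asns and Fgf21) and 0 higher, 8% of the list against 0.922% of all genes called lower. The difference was below 0 for 22 of the 25, against 50.6% of all genes, and the median was -0.31. Asns, asparagine synthetase, was at 4.83 and 4.53 against 3.21 and 3.01, at least 2.14-fold lower, and not called without the first array of the 5% pool. Psat1, an enzyme of serine synthesis, was at 4.75 and 4.80 against 3.63 and 3.97 (-0.98 ± 0.17), and Atf5 was at 8.88 and 9.02 against 8.19 and 8.01 (-0.85 ± 0.12). The amino acid transporter Slc38a2 went the other way, at 6.95 on both arrays against 7.69 and 7.81 (0.80 ± 0.06).

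Hsd17b2, an enzyme that inactivates oestrogens and androgens and is abundant in liver, was one of the brightest genes called. It was at 11.24 and 11.16 at 5% and at 9.70 and 9.50 at 30%, a difference of -1.61 ± 0.11 (3.04-fold lower). The 10 and 20% pools were at 11.07 and 10.64, and the slope was -1.59 ± 0.19 (limma adjusted p = 0.0105). Abcc2, the canalicular exporter of bilirubin conjugates, was at 8.60 and 8.63 against 7.67 and 7.78, with a slope of -0.83 ± 0.14 (limma adjusted p = 0.048). Cyp2c12, a P450 that is the female-type form in rats, was at 4.84 and 4.99 against 4.20 and 3.59 (-1.02 ± 0.31, not called without the second array of either pool), and Onecut1, a liver transcription factor that activates it, was at 8.17 and 7.72 against 6.77 and 6.43 (-1.34 ± 0.28). The male-type P450 Cyp2c11 did not differ beyond its arrays (-0.12 ± 0.10), nor did Igf1 by more than 0.21 ± 0.14. Of 46 phase I genes tested, 2 were called lower (Hsd17b2 and Cyp2c12) and 0 higher, 4.35% of the list against 1.55% of all genes. The list as a whole leaned the other way, with a median of 0.14. Its arrays lay apart in the higher direction for 21 genes and in the lower for 6, against 22.5 and 23.8% of all genes. Of 24 genes of the growth hormone axis and sex-dependent genes, 1 was called higher (Igfbp1) and 2 lower (Cyp2c12 and Onecut1), 12.5% of the list against that same 1.55%.

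Cdkn1a, the p21 inhibitor of cyclin-dependent kinases, was at 4.86 and 4.49 at 5% and at 6.34 and 6.44 at 30% (1.72 ± 0.19, 3.29-fold). The 10 and 20% pools lay between, at 5.63 and 5.84, and the slope did not pass (limma adjusted p = 0.311). Cdkn1a was the only gene called of 18 of the cell cycle tested, 5.56% of the list against 1.55% of all genes. A share that rests on 1 gene does not set the list apart. Its median was -0.10, and 11 of the 18 lay below 0. Wsb1, a substrate receptor of a ubiquitin ligase, was at 3.37 and 4.09 against 5.54 and 5.79, at least 3.56-fold higher. Arrdc3, an arrestin-like adaptor, was at 8.62 and 8.95 against 7.23 and 7.34 (-1.50 ± 0.17), and Slc25a30, a mitochondrial carrier, at 8.43 and 8.10 against 6.79 and 6.31 (-1.71 ± 0.29). Sik2, a kinase of the salt-inducible family that restrains gluconeogenic transcription, was at 5.46 and 5.71 against 3.98 and 4.28 (-1.45 ± 0.19). Sqstm1, the autophagy receptor p62, was at 9.73 and 9.77 against 9.04 and 8.98, and its slope of -0.74 ± 0.10 passed (limma adjusted p = 0.0249). Its 3 dimmer probe sets differed by -0.23, 0.57 and 0.63, and their slopes did not pass. Other called genes were dim. Among the 15 largest rises, Vax2, Kank3, Tmem88, Adam1a, Neu2 and Hhipl1 were, with low values raised, at least 2.40 to 2.86-fold higher, and among the 15 largest falls Swsap1, Klf16, Ube3b, Slc34a2, Cryl1 and Zfp703 were at least 2.77 to 3.25-fold lower. The arrays of Vax2 in the 5% pool read 2.04 and 3.95, and those of Klf16 in the 30% pool 2.63 and 4.24, so such sizes depend on signals close to or under 3.58. Kank3 and Hhipl1 were not called without the first array of the 30% pool, nor Neu2 without the second of the 5% pool.

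In the immune and housekeeping lists that follow, Mx2 was the gene called. Of 29 interferon and antigen presentation genes tested, 1 was called lower (Mx2) and 0 higher, with a median of -0.22. That is 3.45% of the list against 1.55% of all genes. The arrays lay apart in the lower direction for 16 of the 29 and in the higher for 3, against 23.8 and 22.5% of all genes. Psmb8, an immunoproteasome subunit, was at 8.51 and 8.28 against 7.62 and 7.50 (-0.83 ± 0.13), and Oas1a, an interferon-induced RNA sensor, at 6.52 and 6.51 against 5.67 and 5.82. None of 39 ribosomal protein genes, 31 proteasome genes, 58 subunits of oxidative phosphorylation, 29 endoplasmic reticulum chaperones and 38 phase II genes was called (1.55% of all genes). At that share a list of this size would hold few called genes or none, so a count of 0 does not set any of these lists apart. Arrays lay apart in the lower direction for 17 of the 29 chaperones and in the higher for 3. Of the 38 phase II genes they lay apart in the higher direction for 17 and in the lower for 5. Over all genes these shares were 23.8% in the lower and 22.5% in the higher direction. Hspa5, the main chaperone of the endoplasmic reticulum, differed by -0.10 ± 0.05, whereas Edem1, which marks misfolded glycoproteins for disposal, was at 9.44 and 9.55 against 10.42 and 10.35 and rose with a slope of 0.85 ± 0.13 (limma adjusted p = 0.0425).

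**Figure D4:**
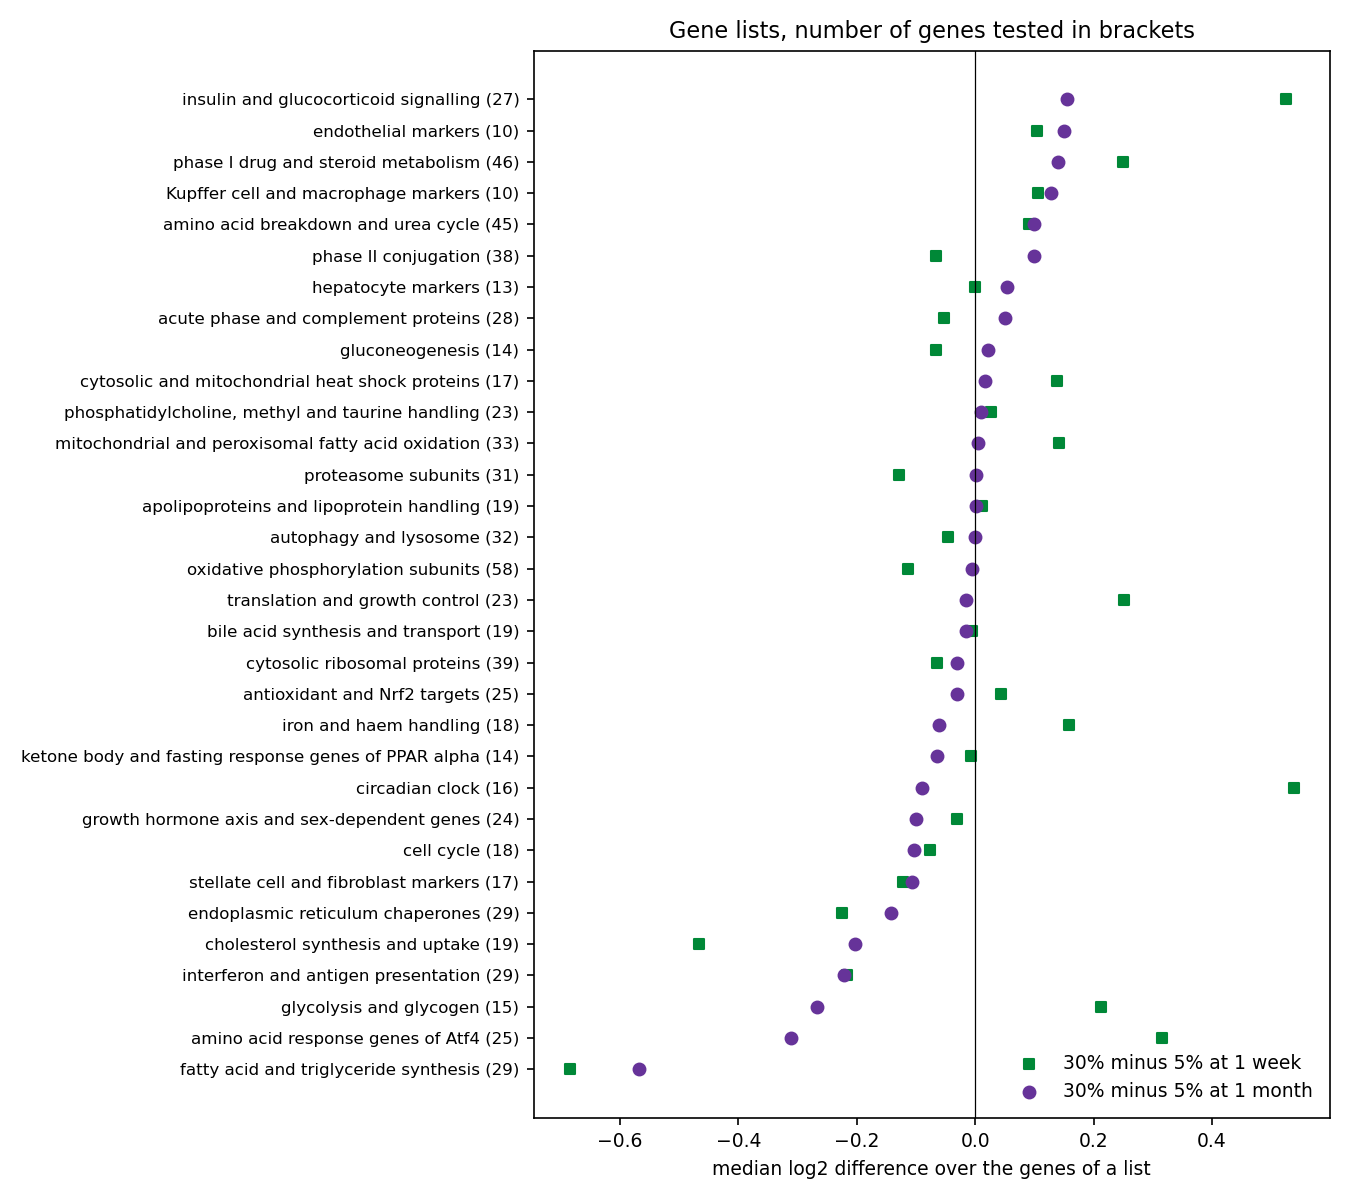
Median log2 difference, 30% minus 5%, over the genes of each list with at least 10 genes tested (number in brackets), at 1 month (purple circles) and 1 week (green squares). Fatty acid and triglyceride synthesis lies lowest at 1 month, at -0.57; the Atf4 list lies at -0.31 at 1 month and at 0.32 at 1 week.

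Markers of cell types moved only a little, and in summed signal some of them did not overlap. The summed signal of 13 hepatocyte markers was 50132 and 50007 units at 5% and 51984 and 51531 at 30%. That of 10 Kupffer cell and macrophage markers was 1079 and 1043 against 1320 and 1245, with 9 of 10 genes above 0 (49.3% of all genes). Their median was 0.13, and -0.02 without the first array of the 30% pool. It was -0.07 with arrays centred and -0.16 with signals as deposited, against -0.174 and -0.265 over all probe sets tested. Cd14, a receptor for bacterial lipopolysaccharide, was called higher (6.76 and 6.58 against 7.59 and 7.84). That call was lost with signals as deposited or centred, or without the second array of either pool. Clec4f, the marker most particular to Kupffer cells in rodents, differed by 0.08 ± 0.15. The sum of 10 endothelial markers was 491 and 479 against 595 and 632. Their median was 0.15, with 7 genes above 0 and 3 below. Their arrays lay apart in the higher direction for 3 and in the lower for 2, against 22.5 and 23.8% of all genes. The sum of 17 stellate cell and fibroblast markers was 2678 and 2500 against 2413 and 2476, with Col1a2 called lower (5.14 and 5.02 against 3.38 and 4.57). That call was lost under 3 of 4 other scalings and without the first array of either pool, while the second probe set of Col1a2 differed by 0.75 ± 0.08. Of 13 lymphocyte and neutrophil markers on the array only 1 passed the signal filter, and its part and that of the other markers in the differences above was not tested.

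For most called genes the pools between the ends differed in the same direction as the end pools. The difference between the 20 and 10% pools at 1 month shares no array with the comparison, and had the same sign for 38 of the 44 genes called higher (86.4%, against 51.6% of all genes above 0) and for 46 of the 65 called lower (70.8%, against 48.4% below 0). The sizes were small there: the median was 0.21 for the genes called higher and -0.21 for those called lower, and 37 of 7051 genes (0.525%) were called in that comparison. The list of fatty acid and triglyceride synthesis had a median of 0.12 there against -0.57 between the end pools, and cholesterol synthesis 0.12 against -0.20. Across the 7051 genes the 2 differences correlated at 0.196, a description with no test, since genes of 1 pool are not independent.

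At 1 week, few of the same genes were called between the 30% and 5% pools. There 91 genes were called higher (1.29%) and 89 lower (1.26%), together 2.55%, and no array is shared with the 1 month comparison. Of the 44 genes called higher at 1 month 4 were called higher and 2 lower at 1 week, and of the 65 called lower 8 were called lower and 4 higher. The sign was shared by 19 of 44 and 35 of 65, 43.2 and 53.8%, near the 47.7 and 52.3% of all genes, and the 2 differences correlated at 0.0115 across the 7051 genes. Among the genes of shared direction were several of insulin, glucocorticoids and fat synthesis described above. Igfbp1 differed by 1.56 at 1 week, Tat by 2.09, Lpin1 by 1.92, Sgk1 by 1.23 and Fkbp5 by 1.00, and in the lower direction Fasn by -3.39, Fabp5 by -1.44 and Nr1d1 by -1.55. Differing in sign or size were Dbp at 0.51, Hsd17b2 at 0.14, Onecut1 at 0.46 and Insig1 at 0.05. Hamp, the iron hormone hepcidin, differed by 0.59 ± 0.06 at 1 month and by -3.68 at 1 week, and Cyp7a1, which starts the main route from cholesterol to bile acids, by -0.36 ± 0.10 and 1.63.

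**Figure D5:**
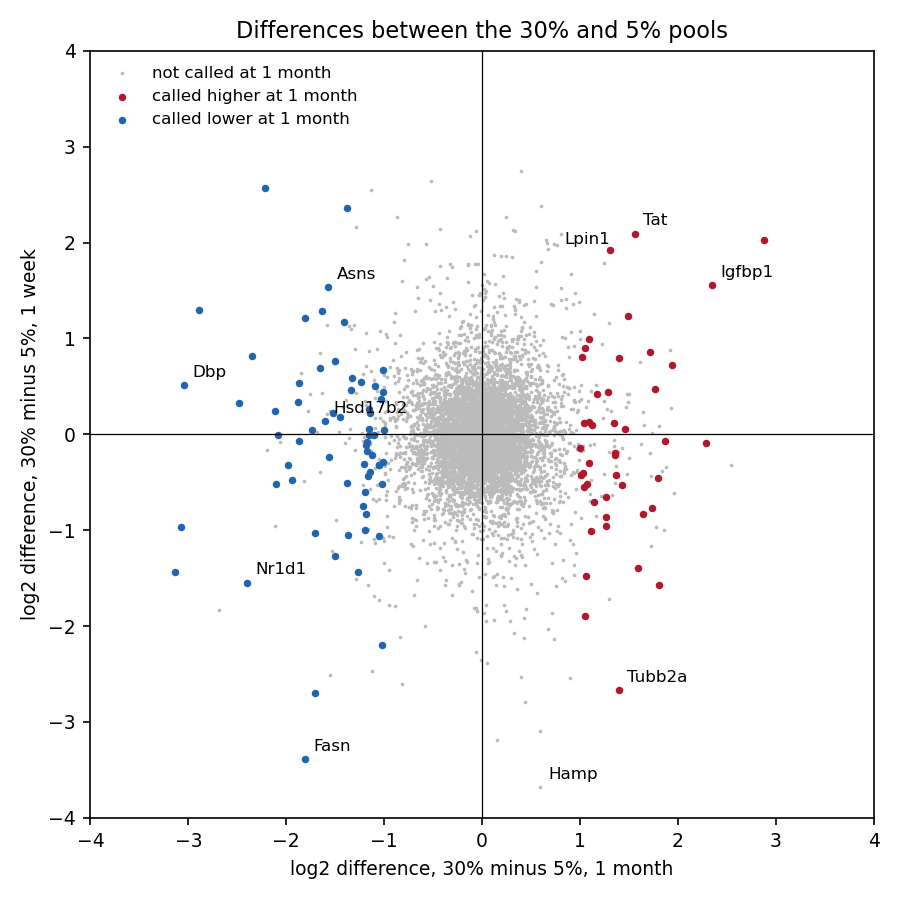
Log2 difference of the 30% pool minus the 5% pool at 1 week (vertical) against 1 month (horizontal), 1 point for each of 7051 genes, with the 44 genes called higher at 1 month in red and the 65 called lower in blue. Igfbp1, Tat and Lpin1 lie above 0 at both durations and Fasn and Nr1d1 below 0 at both, while Tubb2a, Asns, Dbp and Hsd17b2 change sign.

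None of these differences between the durations was shown by test: the difference of the 2 slopes passed for 0 of 9520 probe sets in limma (1325 had an unadjusted p under 0.05, and the lowest adjusted p was 0.0572). For Hsd17b2 and Dbp the adjusted p of that difference was 0.0572 and 0.123. With 1 slope for both durations, 14 genes rose (0.199%) and 23 fell (0.326%). Igfbp1 (limma adjusted p = 0.0034), Sgk1 (0.0123), Fkbp5 (0.021), Tsc22d3 and Tat (both 0.0263 to 0.0264) rose, and Nr1d1 (0.00321), Elovl5 (0.00831), Arrdc3 (0.0133), Srebf1 (0.027), Fasn (0.0446) and Acly (0.0477) fell. This count also turned on single pools, with 2 probe sets past the threshold without the 30% pool at 1 week and 11 without the 5% pool at 1 month, against 46 with all 8 pools.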

How the data were processed

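Liver RNA pools of food-restricted rats were measured on Affymetrix rat expression arrays. The deposited intensity values are linear probe set signals, and the submitters' processing notes name MAS5 as the tool. The sources used here give neither its version nor its scaling target, and no detection calls were used. Of 15923 probe sets, 57 controls were left out. Signals of 0 (28 in the 16 arrays of restricted rats) were raised to the lowest signal above 0 on the same array, log2 was taken and the 16 arrays were quantile-normalized together. The upper 60% by mean level, 9520 probe sets, were tested. Gene names came from the platform annotation (8122 with 1 gene, 244 with several, 1154 with none), updating to the current rat gene table changed 0 symbols, and a gene was read from its brightest probe set with 1 gene. Depth does not apply to arrays; their number limits the precision.

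The 2 arrays of a pool repeat 1 RNA and were averaged. Pools were compared by size only. Slopes used limma 3.58.1 in R 4.3.3 (lmFit, eBayes with a variance trend), two-sided, with Benjamini-Hochberg adjustment over 9520 probe sets and a threshold of 0.05; p-values measure the spread of single pools about the lines. Scripts were tested on simulated data. Alternatives covered scaling, the filter, the size rule, the floor, arrays or pools left out, the control pools and the GAPDH ratio.

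The comparison, the gene lists and the tests were chosen with earlier results of these data known. Named genes are the 15 largest rises and 15 largest falls called, up to 6 members of each list with the largest differences, the 3 largest rises and falls among the 1 month slopes that passed, and a set of metabolic, hormonal and clock genes. Akr1c1, Bcar3, Sec31a, Clec4f, Clock, Cps1, Elovl5, Gpam, Hes6, Hlf, Insr, Me1, Mid1ip1, Otc, Pdk2, Per1, Tef, Thrsp and, in the closing section, Sdc4 were named after their values were seen. Of that set Pnpla3, Sqle, Ppargc1a and Bmal1 lay under the filter, and some others are not reported here. Promoter sequences are from RefSeq, build GRCr8; the array names no genome build.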

Additional observations from a re-analysis of the deposited data

Results flagged for a closer look

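Tubb2a and Asns were singled out because each was called in one direction at 1 month and in the opposite direction at 1 week. Tubb2a was higher in the 30% pool than in the 5% pool at 1 month, by 1.39, and lower at 1 week, by 2.67 on the log2 scale (-2.67), where the 5% pool stood at 7.70 and the 30% pool at 5.03. Asns was lower at 1 month, at -1.57, and higher at 1 week, at 1.54, with 3.28 in the 5% pool and 4.81 in the 30% pool there. Its lower pool lay under 3.58 at both durations, so the folds are at least 2.14 at 1 month and at least 2.35 at 1 week. The difference between the 2 slopes did not pass for either gene (limma adjusted p = 0.0572 for Tubb2a and 0.41 for Asns).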

How the results depend on the processing

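No paired analysis was possible because the replicate numbers mark 2 arrays of 1 RNA pool, which were averaged. The 1 month comparison gave 159 called probe sets, 70 higher and 89 lower. The split moved with scaling, to 31 higher and 157 lower with signals as deposited and to 53 and 153 with arrays centred on their medians. The count was 70 with the upper 40% of probe sets alone, 948 at 1.5-fold and 329 with low values not raised, and ran from 220 to 372 with 1 array left out (372 without the second array of the 30% pool). With low values not raised, the 1 week count went from 260 to 445 and that of 20 against 10% from 53 to 165. The 28 list members called became 99 at 1.5-fold. The 1 month slope passed for 19 probe sets, for 8 with no filter, 3 with control pools added, 0 with no variance trend and 1 with the GAPDH ratio. It ranged from 0 (without the 5% or the 30% pool of 1 month) to 27 (without the 20% pool of 1 month) in the fits that left out a pool or an array. The difference of slopes passed for 0, for 31 with signals as deposited and for 6 with the GAPDH ratio, and ranged from 0 to 40 (without the 30% pool of 1 week). The common slope passed for 46, for 29 with no filter, 355 with control pools added, and 0 with no variance trend (1133 at an unadjusted p under 0.05) or with the GAPDH ratio (815). It ranged from 2 (without the 30% pool of 1 week) to 58 (without the 5% pool of 1 week). The cause of these changes was not tested. Of the 44 named genes called, 37 stayed called with signals as deposited, 40 with arrays centred, and 38 to 42 with 1 array left out. Under the settings of the 1 month comparison that tested them 0 changed direction, which says little. The arrays of a called gene do not overlap, so leaving out an array or changing the floor, the fold or the filter could not reverse it. Genes close to 3.58 on the log2 scale are the least certain.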

Other observations

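Other genes also followed restriction when 1 slope was fitted for both durations. Tfrc, the transferrin receptor that brings iron into cells, rose (limma adjusted p = 0.027) and stood at 6.95 and 6.74 in the 5% pool at 1 month against 8.06 and 7.52 in the 30% pool. Eif4ebp3, a repressor of cap-dependent translation, rose (adjusted p = 0.0264), from 7.87 and 7.88 to 8.84 and 8.90 at 1 month. Sdc4, a cell surface proteoglycan, rose by 0.63 over 25 percentage points (adjusted p = 0.021). Ccnd1, cyclin D1, fell (adjusted p = 0.0493), and stood at 7.28 and 7.14 against 6.52 and 6.47. Pygl, the liver glycogen phosphorylase, and Gckr, a regulator of glucose use in the liver, fell as well (adjusted p = 0.0185 and 0.0386). At 1 month alone the slope did not pass for Tfrc, Eif4ebp3, Ccnd1, Pygl or Gckr (limma adjusted p from 0.116 to 0.253).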
